A study of Mus musculus with 14 samples.

Results

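The genes described here encode the nuclear-encoded subunits of the mitochondrial respiratory chain and ATP synthase in newborn mouse brain. They are the protein-coding genes of the deposited count table whose symbols match a rule. It took symbols beginning with Ndufa, Ndufb, Ndufc, Ndufs or Ndufv and then a digit, or with Uqcr, Cox4 to Cox8 or Atp5. Sdha to Sdhd and Cyc1 were taken by their full symbols. The choice used names and biotypes and no measured value. It gave 84 of 17927 genes, with 38 in complex I, 4 in complex II, 9 in complex III, 16 in complex IV and 17 in complex V. A further 5 rows with matching symbols were processed pseudogenes and were left out. No row of the table carried the symbols Cox7b2, Cox8b or Cox8c. Symbols are those of the deposited table, which gives, for example, Atp5a1 for the gene now called Atp5f1a.

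The compared RNA-SEQ libraries were made from whole brains at postnatal day 2 (P2), 7 of them WT and 7 Capn15 KO. The mice were untreated and came from 6 litters, called A to F here. The methods describe lines made in C57BL/6J mice, among them a Capn15(lacZ-Neo) line and a FLOXed line, while the labels give the genotype of the sequenced brains as KO without naming the allele. By the column names of the counts, 2 WT and 4 Capn15 KO brains were female and 5 WT and 3 Capn15 KO brains were male. Within each of litters A to E the WT and KO brains were of opposite sex, and in litter F both were male.

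The respiratory chain passes electrons from NADH (complex I) and succinate (complex II) through complex III to oxygen at complex IV, pumping protons across the inner mitochondrial membrane. ATP synthase (complex V) lets the protons back and makes ATP. Mitochondrial DNA encodes a small set of core subunits of complexes I, III, IV and V, and nuclear genes encode all other subunits, several of them as tissue-specific isoforms.

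Libraries held between 37620954 and 70910163 counts on genes. Capn15 itself was at 25.4 ± 3.07 CPM (counts scaled to a total of 1000000 per library with TMM factors; SD, n = 7) in the WT libraries and at 14.5 ± 2.67 CPM (SD, n = 7) in the KO libraries. In litter F the order was turned, with 18.7 CPM in the library labelled WT replicate 7 and 20.2 CPM in the library labelled KO replicate 7, so that results are also given without this pair. The labels give the cell type as neurons, but markers of radial glia and astrocytes summed to between 1561 and 2218 CPM per library, markers of the choroid plexus to between 701 and 1092 CPM and those of red blood cells to between 31.0 and 322 CPM, beside 6245 to 6824 CPM for neuronal markers. The libraries are therefore described as brain. In such bulk samples, fewer cells of a type and less RNA per cell cannot be told apart.

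Sequence bears on these genes in 2 ways, through likeness between genes and through promoters. The c subunit of ATP synthase, which forms the rotating ring in the membrane, is encoded by Atp5g1, Atp5g2 and Atp5g3, which are known to give the same mature protein from different precursors. Their coding sequences were identical at 68.8% (Atp5g1 and Atp5g2), 66.6% (Atp5g1 and Atp5g3) and 67.4% (Atp5g2 and Atp5g3) of aligned columns. The last 120 coding bases of the 3 genes, without the stop codon, are shown because they hold a large part of the mature subunit. They were read from GRCm38 (GENCODE M21), on the minus strand in each case and joined across introns, from chr11:96073107-96073530, chr15:102663017-102665061 and chr2:73908596-73909191. Capitals mark the 30 positions at which the genes are not all alike, of which 26 lie at the wobble base of a codon, 4 at its opening base and 0 at the middle base.
Atp5g1: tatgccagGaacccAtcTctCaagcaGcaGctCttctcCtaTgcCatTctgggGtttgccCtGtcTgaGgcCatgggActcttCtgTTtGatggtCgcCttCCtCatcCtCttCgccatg
Atp5g2: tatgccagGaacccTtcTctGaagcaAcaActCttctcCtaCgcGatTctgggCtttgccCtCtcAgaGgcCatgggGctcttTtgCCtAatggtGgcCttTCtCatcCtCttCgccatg
Atp5g3: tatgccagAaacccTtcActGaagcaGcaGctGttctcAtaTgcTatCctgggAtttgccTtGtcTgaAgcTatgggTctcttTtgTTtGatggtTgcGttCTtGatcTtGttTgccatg
No stretch of 50 bases was shared between the 3 genes in these coding sequences. Other annotated genes do share such stretches with members. Of the 50-base stretches of the Atp5g2 principal transcript, 87.4% occurred in transcripts of other genes, as did 68.5% for Atp5l, 61.9% for Cox5b-ps and 53.0% for Cox7c. Over 83 members with a principal transcript, 44 shared no such stretch and 21 shared more than 10% of them. Counts of those 21 may be split with the copies, depending on how reads with several matches were counted. In addition 31 members overlap a gene on the other strand, and the strand setting of the counting is not given in the sources used here.

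NRF1, GABPA and YY1 are transcription factors known to bind promoters of respiratory chain genes. RefSeq promoters (GRCm38.p6, 250 bases before to 50 bases after the start site) were found for 67 of the 84 genes and were searched on both strands. The NRF1 core GCGCATGCG was present in 8 of the 67 member genes (11.9%) and in 1.95% of 27025 genes. The ETS core bound by GABPA, CCGGAAG, was present in 17 member genes (25.4%) and in 9.93% of all genes, and the YY1 core AAGATGG in 11 member genes (16.4%) and in 7.28% of all genes. The ETS core ends in the letters with which the YY1 core begins, so that these matches can overlap, and the NRF1 core can match both strands of the same site because it is nearly palindromic. In the 250 bases before the start site alone, the NRF1 core was present in 6 member genes (8.96%, all genes 1.64%), the ETS core in 12 (17.9%, all genes 7.83%) and the YY1 core in 1 (1.49%, all genes 5.18%). The other 10 YY1 matches therefore reached into the 50 bases after the start site. The 6 upstream NRF1 matches are shown with up to 16 bases on each side, the core in capitals.
Atp5g2 (chr15:102671065-102671105, minus strand): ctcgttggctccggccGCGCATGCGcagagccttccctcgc
Atp5k (chr5:108434425-108434465, minus strand): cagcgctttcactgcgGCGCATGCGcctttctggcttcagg
Atp5l (chr9:44920959-44920992, minus strand): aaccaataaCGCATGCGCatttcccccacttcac
Cox6a1 (chr5:115349096-115349136, minus strand): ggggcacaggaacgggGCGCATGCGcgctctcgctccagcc
Ndufa11 (chr17:56717686-56717726, plus strand): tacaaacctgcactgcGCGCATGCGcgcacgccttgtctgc
Ndufa8 (chr2:36049339-36049363, minus strand): tgcgcgtcgctggagaCGCATGCGC
In Atp5l and Ndufa8 the core lies on the strand opposite to the gene. The matches are letters in a window, and binding was not measured.

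To compare genes with each other, counts were divided by the summed exon length of the gene and scaled to a total of 1000000 per library (TPM). The subunit genes were among the abundant transcripts of the P2 brain. Of the 84 genes, 63 (75.0%) had a mean above 100 TPM over the 14 libraries, compared with 9.28% of 14856 protein-coding genes, whose median was 17.3 TPM. The other extreme was a set of 6 genes below 5 CPM, separated by a gap from the remaining 78, of which the lowest was at 25.2 CPM and the highest of the 6 at 2.74 CPM. These were Ndufa4l2, Cox5b-ps, Cox6b2, Cox7a1, Cox4i2 and Cox6a2, and the 5 CPM limit between the sets was chosen after their values were seen. Together the 84 genes summed to between 16926.5 and 19031.5 TPM (median 18194.4) in the WT libraries and to between 17116.5 and 18818.3 TPM (median 17710.9) in the KO libraries, so that the genotypes overlapped.

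**Figure D1:**
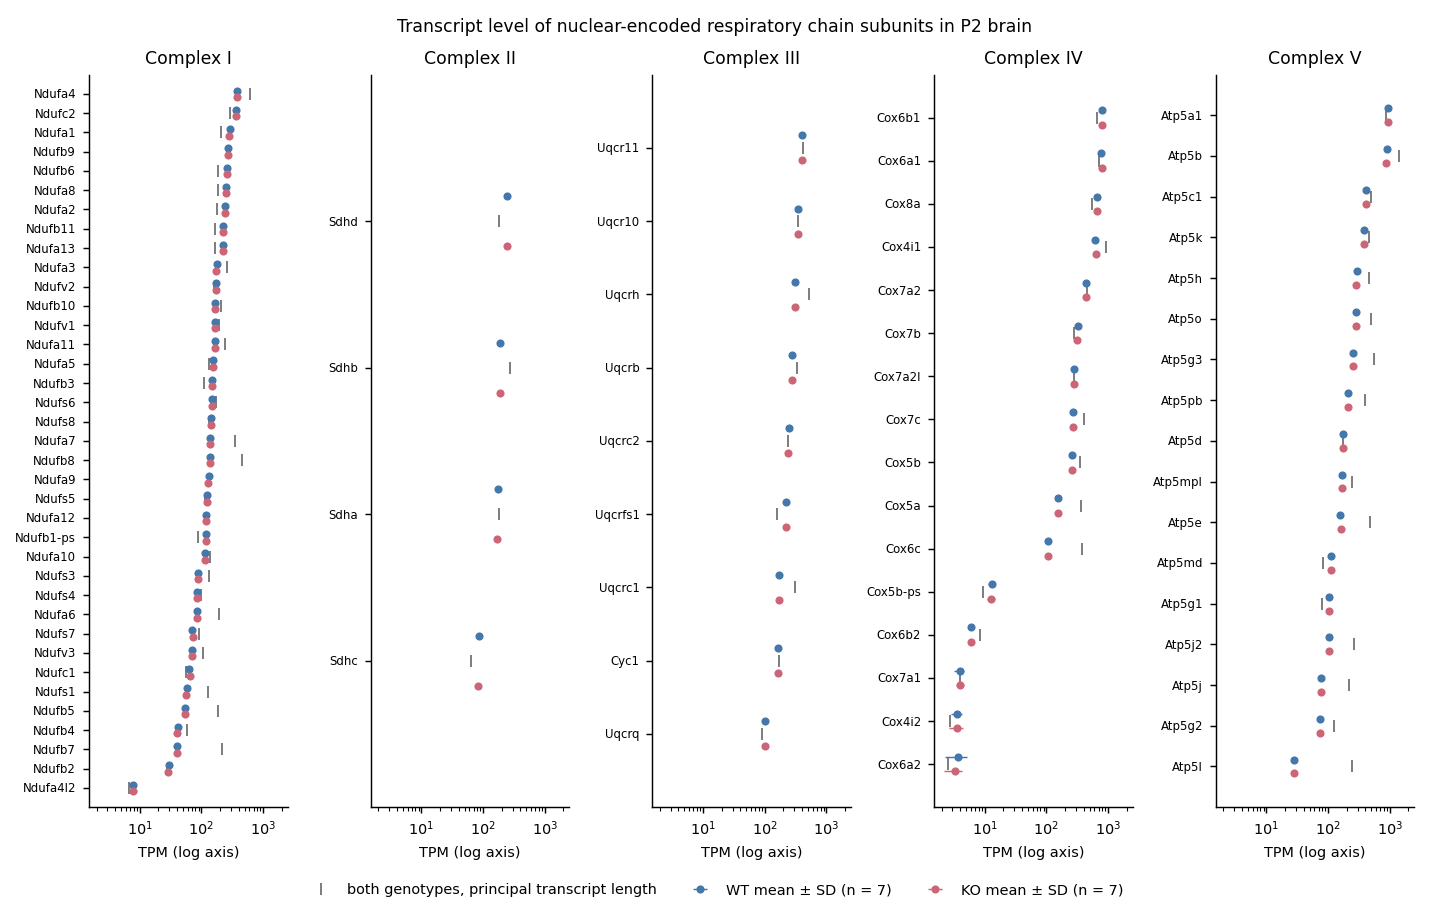
Mean transcript level of 83 subunit genes in TPM (log axis) by complex, in WT (blue) and Capn15 KO (red) brains, with SD over 7 libraries as bars, which are often narrower than the point. Grey ticks give the mean over 14 libraries when the length of the principal transcript replaces the summed exon length. WT and KO points lie at nearly the same level for each gene, while 5 genes of complex IV and Ndufa4l2 sit far below the rest.

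Complex I takes electrons from NADH. Its median subunit level was 139.6 TPM, and among its 38 genes the highest was Ndufa4 at 371 ± 19.0 TPM in WT and 372 ± 17.7 TPM in KO libraries (SD, n = 7 each). Ndufa4 carries a complex I name but is now counted as a subunit of complex IV. The core subunits that bind NADH and carry electrons were not the most abundant. Ndufv1, which holds the NADH binding site and the flavin, was at 166 TPM. Ndufs1, the largest subunit with iron-sulphur clusters, was at 57.9 TPM, and Ndufs7, which holds the last cluster before ubiquinone, at 72.2 TPM. The lowest level was that of Ndufa4l2, the paralogue of Ndufa4, at 7.80 TPM, and the next that of Ndufb2, an accessory subunit of the membrane arm, at 29.2 TPM. Ndufb2 had a mean of 52.6 CPM, but its summed exons covered 5628 bases and its principal transcript 4371 bases. Its place was the same with both lengths.

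Complex II oxidises succinate and has 4 subunits. The membrane anchor Sdhd was highest at 245 ± 16.1 TPM in WT and 241 ± 14.3 TPM in KO libraries, and the other anchor, Sdhc, was lowest at 86.4 ± 3.20 TPM in WT and 84.2 ± 2.21 TPM in KO libraries (SD, n = 7 each). The flavoprotein Sdha was at 172 TPM and the iron-sulphur subunit Sdhb at 188 TPM. With the other transcript length given below, Sdhb was above Sdhd.

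Complex III hands electrons to cytochrome c. Its small subunit Uqcr11 was highest at 399 ± 29.0 TPM in WT and 398 ± 23.2 TPM in KO libraries (SD, n = 7 each). The subunit Uqcrq was lowest at 101 ± 9.98 TPM in WT and 100.3 ± 8.65 TPM in KO libraries (SD, n = 7 each). The catalytic subunits lay between them, with the Rieske iron-sulphur protein Uqcrfs1 at 218 TPM and cytochrome c1, Cyc1, at 163 TPM. The core proteins Uqcrc1 and Uqcrc2 were at 169.8 and 241 TPM.

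Complex IV reduces oxygen. The 4 highest of its nuclear genes were Cox6b1 (796 TPM), Cox6a1 (788 TPM), Cox8a (657 TPM) and Cox4i1 (625 TPM), and the first pair did not differ beyond the spread between libraries, with 796 ± 39.3 TPM for Cox6b1 and 778 ± 22.0 TPM for Cox6a1 in WT libraries (SD, n = 7). With the other transcript length given below, Cox4i1 was highest. Cox6a2 was lowest with 3.503 TPM, followed by Cox4i2 with 3.52 TPM and Cox7a1 with 3.99 TPM. The low genes of complex IV are those of the isoform pairs described next, and Cox5b-ps.

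Complex V makes ATP, and its genes held the highest levels of the 84. The catalytic head subunits alpha, Atp5a1, and beta, Atp5b, were at 944 ± 34.4 and 885 ± 35.3 TPM in WT libraries and at 933 ± 19.5 and 874 ± 32.8 TPM in KO libraries (SD, n = 7 each). The subunits of the central stalk were lower, with gamma (Atp5c1) at 412 TPM, delta (Atp5d) at 173 TPM and epsilon (Atp5e) at 158 TPM. The lowest level was that of Atp5l, subunit g of the membrane part, at 28.4 TPM, but its summed exons covered 6443 bases and its principal transcript 544 bases.

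Levels per length depended on the transcript chosen. With the length of the principal transcript, Atp5l was at 247 TPM, Ndufs1 at 129 TPM, and 23 of the 84 genes were more than 1.5 times higher than with summed exons. Complex V then had the highest median (400.0 TPM), followed by complex IV (357 TPM), complex III (311 TPM), complex II (179 TPM) and complex I (164 TPM). With summed exons the order was complex IV (264 TPM), complex III (241 TPM), complex II (179.9 TPM), complex V (173 TPM) and complex I (139.6 TPM). The place of complex V therefore rested on the length used, whereas complex I was lowest with both. Atp5b was highest of all with the principal transcript, at 1425 TPM. The highest genes of complexes II, III and IV became Sdhb (269.8 TPM), Uqcrh (518 TPM) and Cox4i1 (929 TPM). Cox6a1 was then at 710 TPM and Cox6b1 at 668 TPM.

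Several subunits have a common and a tissue-restricted isoform. Cox4i2 is known from lung and for its regulation by oxygen, Cox6a2 and Cox7a1 from heart and skeletal muscle, Cox6b2 from testis, and Ndufa4l2 for its induction in hypoxia. In the P2 brain each of these genes was far below its partner. Shares are given as percent of the summed TPM of the family in a library.

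Cox4i2 made up between 0.408% and 0.715% of the Cox4i family in WT libraries (median 0.578%) and between 0.367% and 0.725% in KO libraries (median 0.548%). In CPM, Cox4i2 lay between 0.624 and 1.14 (median 0.914) in WT and between 0.583 and 1.2 (median 0.860) in KO libraries, and Cox4i1 between 299.6 and 321 (median 304) in WT and between 286 and 324 (median 312) in KO libraries. The ranges of the genotypes overlapped for both genes. Over the 14 libraries Cox4i1 was 178 times higher per length than Cox4i2.

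Cox6a2 made up between 0.253% and 0.696% (median 0.453%) of the Cox6a family in WT and between 0.193% and 0.560% (median 0.403%) in KO libraries, and its level was between 0.420 and 1.22 CPM (median 0.791) and between 0.320 and 1.05 CPM (median 0.691). Cox6a1 was at 168 to 180.2 CPM (median 175) in WT and at 170.4 to 192 CPM (median 176) in KO libraries. Cox6a2 was the gene with the widest interval of the genotype effect, a log2 fold change of -0.17 with a 95% interval from -0.62 to 0.27, which held 0.

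Cox6b2 made up between 0.656% and 0.840% (median 0.729%) of the Cox6b family in WT and between 0.667% and 0.952% (median 0.711%) in KO libraries. Its level was between 1.92 and 2.37 CPM (median 2.02) in WT and between 1.91 and 2.61 CPM (median 2.06) in KO libraries. Cox6b1 was at 167 to 189 CPM (median 180.4) in WT and at 171 to 189 CPM (median 182) in KO libraries. These ranges overlapped as well.

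The Cox7a family has 3 measured genes. Cox7a1 made up between 0.407% and 0.759% (median 0.534%) in WT and between 0.475% and 0.702% (median 0.538%) in KO libraries. Cox7a2, the isoform found in most tissues, made up 60.8% ± 1.49 in WT and 60.4% ± 2.07 in KO libraries (SD, n = 7 each). Cox7a2l, linked to the joining of complexes III and IV into supercomplexes, an activity not measured in these mice, made up 38.6% ± 1.51 and 39.0% ± 2.10 (SD, n = 7 each). The counts behind them were between 0.510 and 0.940 CPM in WT and between 0.588 and 0.817 CPM in KO libraries for Cox7a1, and between 128 and 137 CPM and between 125 and 141 CPM for Cox7a2. Cox7a2l was at 127 to 147 CPM (median 131) in WT and at 123 to 152 CPM (median 131) in KO libraries. Per summed exon length it was below Cox7a2 in each library, whereas in CPM it was above Cox7a2 in 4 of 14 libraries.

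Per summed exon length Ndufa4l2 had the highest share of the minor isoforms, with between 1.65% and 2.26% (median 2.10%) of the Ndufa4 pair in WT and between 1.64% and 2.49% (median 2.26%) in KO libraries. Its level was between 2.32 and 2.92 CPM (median 2.75) in WT and between 2.30 and 3.18 CPM (median 3.01) in KO libraries. Ndufa4 was at 154 to 174 CPM (median 162) and at 157 to 174 CPM (median 163). With principal transcripts the mean share of Ndufa4l2 was 1.08%, below the 1.23% of Cox6b2.

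**Figure D2:**
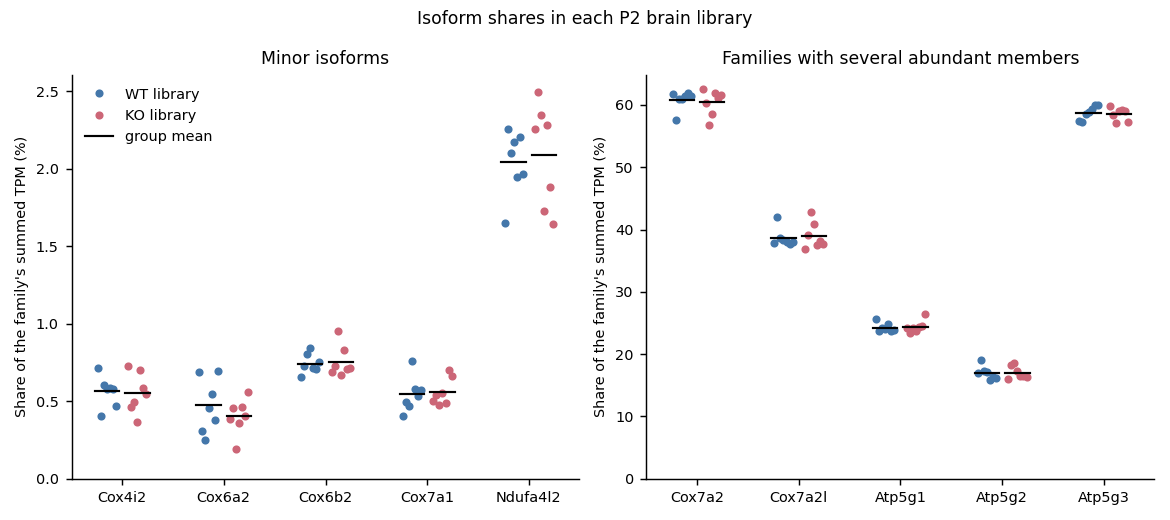
Share of each isoform in the summed TPM of its family (percent), 1 point per library, WT in blue and KO in red, with the group mean as a line. The left panel holds the minor isoforms, all below 2.5%, and the right panel the Cox7a2, Cox7a2l and Atp5g genes, and in each the WT and KO points overlap.

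For the c subunit of ATP synthase, the ring whose coding ends are printed above, Atp5g3 made up 58.8% ± 1.13 in WT and 58.5% ± 1.01 in KO libraries, Atp5g1 24.3% ± 0.710 and 24.4% ± 0.983, and Atp5g2 16.96% ± 1.04 and 17.1% ± 1.03 (SD, n = 7 each). Atp5g3 was the main source of transcript in each library on this scale. The order of the other two depended on length: with principal transcripts the means over 14 libraries were 73.3% for Atp5g3, 16.2% for Atp5g2 and 10.5% for Atp5g1, and as plain counts Atp5g3 and Atp5g1 took 46.4% and 43.3%. In CPM, Atp5g1 was at 154 to 173 (median 166) in WT and 153 to 184 (median 162) in KO libraries, Atp5g2 at 36.3 to 42.0 (median 39.2) and 36.3 to 43.1 (median 38.8), and Atp5g3 at 164 to 192 (median 177) and 165 to 189 (median 178).

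The shares of 9 isoforms (Cox4i2, Cox6a2, Cox6b2, Cox7a1, Cox7a2l, Ndufa4l2, Atp5g1, Atp5g2 and Atp5g3) were compared between the genotypes by exact permutation (two-sided, 3432 ways to regroup the libraries, smallest possible p 0.000583). None of the 9 passed an unadjusted p of 0.05, and the lowest exact p was 0.386, for Cox6a2, whose share was 0.0707 percentage points lower in KO libraries on average. The largest difference in points was that of Cox7a2l, which was 0.390 points higher in KO libraries (exact permutation p = 0.728), against an SD of 1.51 points between WT libraries. This test leaves litter and sex out, although WT and KO libraries of the same number share a litter. With exact sign flips over the 7 pairs of the same number (two-sided, smallest possible p 0.0156), the p values lay between 0.266 and 0.891. In the pairs numbered 1 to 6 the WT and KO brains were of opposite sex, so these p values do not separate genotype from sex. The pairs numbered 2 and 3 both came from litter B, where only the number joined a WT to a KO brain. Shares within a family sum to a fixed total and are not independent of each other.

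The last low gene, Cox5b-ps, has the suffix of a pseudogene but the biotype of a protein-coding gene, and lies without introns on chromosome 13 (21501029 to 21501418, minus strand). Its coding sequence was identical to that of Cox5b at 99.2% of 390 aligned columns and shared 211 stretches of 50 bases with it. It was at 1.31 to 1.88 CPM (median 1.61) in WT and at 1.33 to 1.94 CPM (median 1.57) in KO libraries, beside 125 to 148 CPM (median 131) and 125 to 144 CPM (median 130.3) for Cox5b. Its counts are uncertain, as reads of Cox5b could be assigned to it.

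Whether loss of Capn15 changed these transcripts was asked in a quasi-likelihood model (edgeR) of the 17927 genes that included litter and sex. No member passed the test. Of the 84 genes, 0 passed an FDR of 0.05, compared with 1 of all genes (0.00558%), and 0 had an unadjusted p under 0.05, compared with 5.14% of all genes. The likelihood ratio test, DESeq2 and limma-voom called 0 of the 84 as well, and of these DESeq2 and limma-voom gave 1 member, Sdha, an unadjusted p under 0.05. Over all 25 settings, 5 members (Sdha, Ndufs7, Cox8a, Cox6a1 and Ndufb11) had such a p in at least 1 of them, Sdha also with other scaling factors and the other 4 with single libraries left out, and the lowest FDR of a member was 0.425 (edgeR). No member had WT and KO ranges in CPM that did not overlap, while 0.00558% of all genes did. Capn15 itself missed the threshold in this fit, which kept the litter F pair (log2 fold change -0.81, FDR 0.0747, edgeR).

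**Figure D3:**
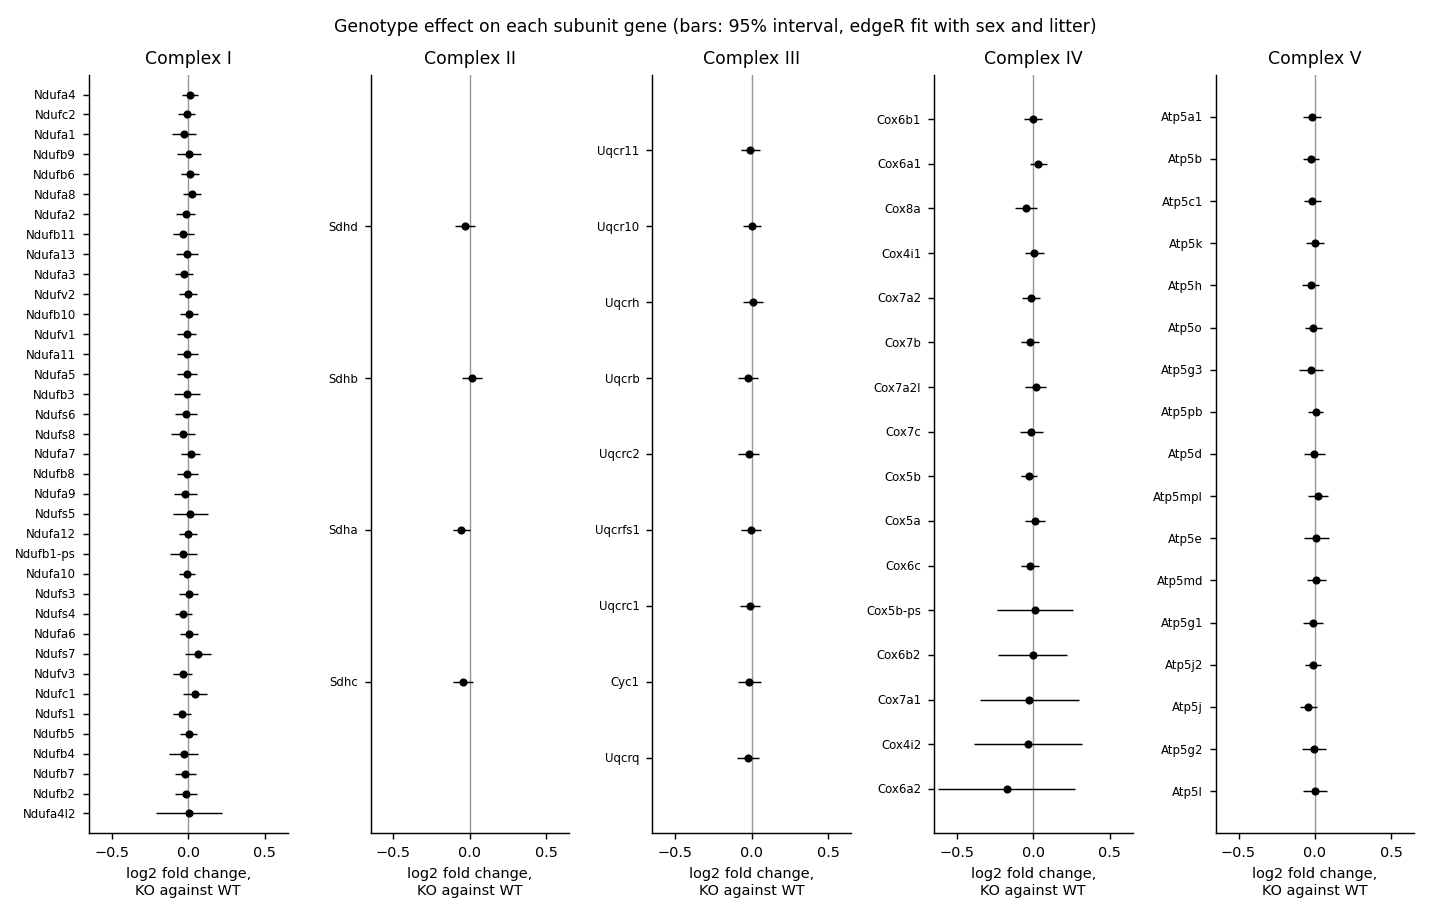
Fitted log2 fold change of 83 subunit genes in Capn15 KO against WT brains by complex, with its 95% interval (edgeR, 14 libraries, litter and sex in the model), ordered by level within each complex. The intervals drawn all hold 0, and those of the genes above 5 CPM stay between -0.12 and 0.15, while the rare isoforms have wide intervals.

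The intervals, fitted with the litter F pair kept, show how small a change these libraries could hide. For the 78 genes above 5 CPM, the fitted log2 fold changes lay between -0.06 and 0.07, their standard errors between 0.0234 and 0.0528, and their 95% intervals, not adjusted for the number of genes, between -0.12 and 0.15. That corresponds to a fall by 8.18% at one end and a rise of 11.03% at the other. For the 6 rare genes the log2 fold changes lay between -0.17 and 0.01 with intervals from -0.62 to 0.32. The intervals of all 84 genes held 0.

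The 5 genes with the lowest unadjusted p are described in full. Sdha, the flavoprotein of complex II that oxidises succinate (chromosome 13, 74322254 to 74350280), was at 216 to 258 CPM (median 228) in WT and at 218 to 232 CPM (median 223) in KO libraries. The KO range lay inside the WT range. The log2 fold change was -0.06 (SE 0.0266, FDR 0.971, edgeR). Without the litter F pair it was -0.04 (FDR 1.0, edgeR), and with single libraries left out it ranged from -0.09 to -0.04, the lower end being that without either library of litter C.

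Atp5j, coupling factor 6 of the ATP synthase stalk (chromosome 16, 84827866 to 84835625), was at 75.9 to 82.2 CPM (median 76.7) in WT and at 72.8 to 78.6 CPM (median 74.1) in KO libraries. It was lower in KO libraries in 6 of 7 pairs of the same number, and the pairs numbered 1 to 6 also differ in sex. The log2 fold change was -0.04 (SE 0.0253, FDR 1.0, edgeR).

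Ndufs7, the complex I subunit with the last iron-sulphur cluster (chromosome 10, 80249121 to 80256794), was at 36.0 to 42.2 CPM (median 38.9) in WT and at 38.1 to 43.2 CPM (median 39.8) in KO libraries, and was higher in KO libraries in 5 of 7 pairs. Its log2 fold change was 0.07 (SE 0.0397, FDR 1.0, edgeR). It ranged from 0.02 to 0.13 with single libraries left out, the highest value being that without either library of litter C (FDR 0.425 or above, edgeR), and it was 0.04 without the litter F pair.

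Ndufs1, the large iron-sulphur subunit of complex I (chromosome 1, 63143596 to 63176833), was at 140.4 to 161 CPM (median 152) in WT and at 144 to 153 CPM (median 148) in KO libraries, with a log2 fold change of -0.04 (SE 0.0274, FDR 1.0, edgeR). Cox8a, a small subunit of complex IV (chromosome 19, 7215153 to 7217616), was at 118 to 145 CPM (median 132) and at 118 to 135 CPM (median 127), with a log2 fold change of -0.05 (SE 0.0329, FDR 1.0, edgeR). The value for Cox8a ranged from -0.09 to -0.02 with single libraries left out, the lower end being that without either library of litter D. The groups overlapped for both genes.

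By direction alone, 59 of the 84 genes (70.2%) had a fitted log2 fold change below 0, compared with 48.6% of all genes. They were 25 of 38 in complex I, 3 of 4 in complex II, 7 of 9 in complex III, 11 of 16 in complex IV and 13 of 17 in complex V. The median log2 fold change of the 84 was -0.0099, beside 0.0015 over all genes. Since members moved together from library to library, as shown next, their directions are not independent of each other. The count of genes below 0 ranged from 43 to 73 over the other settings, and without the litter F pair it was 51, with a median of -0.0042. The lowest count was that without either library of litter C.

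Members of different complexes shifted together from library to library. For each of the 78 genes above 5 CPM the deviation from its mean log2 CPM over the 14 libraries was taken. In WT replicate 2, 73 of the 78 genes were below their mean, in KO replicate 6, 72 were, and in WT replicate 7, 72 were above it. Some other libraries were nearly even, with 36 genes below the mean in WT replicate 5, 35 in KO replicate 5 and 43 in KO replicate 2. Over all genes the share below the mean was 50.4% in WT replicate 2, 48.1% in KO replicate 6 and 49.1% in WT replicate 7.

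The median deviation in WT replicate 2 was -0.08 for complex I, -0.05 for complex II, -0.12 for complex III, -0.08 for complex IV and -0.07 for complex V. In WT replicate 7 it was 0.07, 0.07, 0.09, 0.07 and 0.05. Over all members above 5 CPM, the medians lay between -0.08 and 0.07 in WT and between -0.05 and 0.05 in KO libraries, so that the genotypes overlapped.

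**Figure D4:**
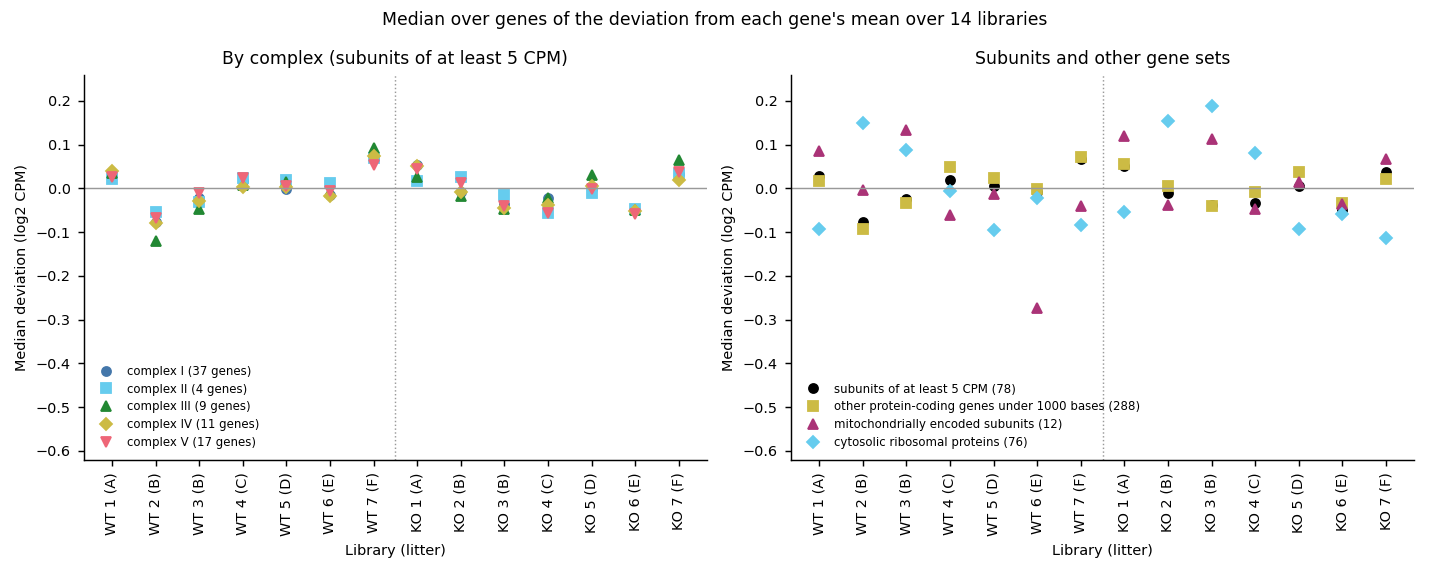
Median deviation from the gene's mean over 14 libraries (log2 CPM) for each library, with its litter in brackets, by complex on the left and for other gene sets on the right. The complexes move together between -0.12 and 0.09, the other protein-coding genes under 1000 bases move with them, and the cytosolic ribosomal proteins and the mitochondrially encoded subunits do not.

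Short genes outside the members moved with them. The 84 members had a median summed exon length of 1559.5 bases, but their length depended on the transcript chosen. By principal transcript some members were under 1000 bases, such as Ndufb7 (623 bases, summed exons 4522) and Cox6c (738 bases, summed exons 3567). Others were longer, such as Sdhc (3171 bases, summed exons 3250). For the 288 other protein-coding genes with summed exons under 1000 bases, the median deviation was -0.09 in WT replicate 2 and 0.07 in WT replicate 7. As a description over the same 14 libraries, the medians of the members and of these genes had a Pearson r of 0.928 and a Spearman rho of 0.908. The part that transcript length or library quality had in the shared deviations was not tested. The median of 76 cytosolic ribosomal protein genes went the other way, with 0.15 in WT replicate 2 and -0.08 in WT replicate 7 (r = -0.681, rho = -0.626). These sets share libraries and scaling factors.

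The spread of single members was small. The median SD of log2 CPM between libraries of the same genotype was 0.0606 for the 84 genes, 0.137 for all genes and 0.0871 for the 8499 genes of at least 20 CPM, of which 78 members had 0.0588. No test was made of this difference.

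The partners encoded by mitochondrial DNA did not follow the nuclear genes. The 12 measured genes summed to between 12596 and 16954 TPM (median 15316) in WT and to between 14424 and 16912 TPM (median 15743) in KO libraries. Their median deviation was lowest in WT replicate 6, at -0.27, where the nuclear members were at -0.01, and in 8 of the 12 genes that library was the lowest of the 14. The Pearson r of the median deviations with those of the nuclear members was 0.111 (rho = 0.0462). Of the 12, 0 passed the FDR for genotype and 2 had an unadjusted p under 0.05, mt-Nd4 with a log2 fold change of 0.12 (FDR 0.958, edgeR) and mt-Cytb, the cytochrome b of complex III, with 0.10 (FDR 0.935, edgeR). Their levels were uneven, from 9206 TPM for mt-Co1 to 5.82 TPM for mt-Atp6, and mt-Nd4l had no row. Means were 4.32 CPM for mt-Co2, 1.27 CPM for mt-Atp6, 0.848 CPM for mt-Nd3 and 0.411 CPM for mt-Atp8. The 5 CPM limit set for the nuclear members was not applied to these 12 genes. Stretches shared with other parts of the genome were not checked for them, so that their levels and sums are uncertain.

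Litter was the factor for which members passed the test. An FDR under 0.05 was reached by 10 of the 84 genes (11.9%), compared with 29.6% of all genes, and by 12.8% of the 78 members of at least 20 CPM, compared with 40.9% of all genes of that level. They were Uqcrq, Uqcr11 and Uqcrb of complex III, Ndufb2, Ndufs8, Ndufa3 and Ndufb6 of complex I, and Cox5b, Cox6c and Cox7a2l of complex IV. Complexes II and V had 0. Ndufs8 is a core subunit of complex I with iron-sulphur clusters.

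**Figure D5:**
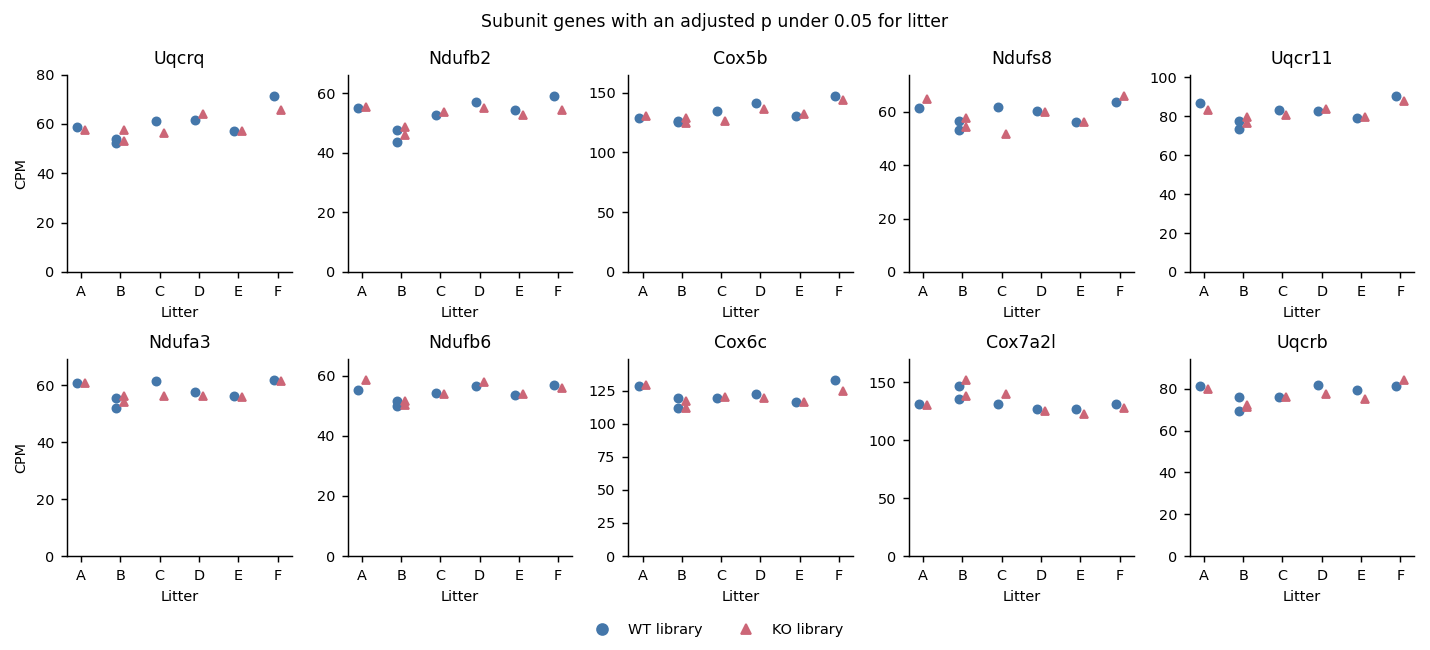
CPM of the 10 subunit genes with an FDR under 0.05 for litter, by litter A to F, with WT libraries as blue circles and KO libraries as red triangles. In 9 of the 10 genes the mean of litter B is the lowest of the 6 litters, and in Cox7a2l it is the highest.

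Uqcrq of complex III had the lowest FDR for litter (0.00348, edgeR). Its means were 58.1 CPM in litter A, 54.2 CPM in litter B, 58.8 CPM in litter C, 62.7 CPM in litter D, 57.0 CPM in litter E and 68.5 CPM in litter F. Over single libraries it lay between 52.5 and 71.5 CPM (median 58.8) in WT and between 53.2 and 65.5 CPM (median 57.4) in KO libraries, the highest value being that of WT replicate 7. Ndufb2 (FDR 0.00373, edgeR) was at 46.6 CPM in litter B and between 53.2 and 56.8 CPM in the other litters. Cox5b (FDR 0.00587, edgeR), which carries a zinc ion in complex IV, was at 126 CPM in litter B and 146 CPM in litter F. Litter B was lowest in 9 of the 10 genes, and litter F highest in 8. These 10 genes were picked by the litter test on the same values, and many other members shifted likewise. Of the 78 members above 5 CPM, 73 and 55 were below their mean in WT replicates 2 and 3 of litter B. In KO replicates 2 and 3 of that litter, 43 and 54 were. In litter F, 72 were above it in WT replicate 7 and 60 in KO replicate 7.

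Cox7a2l went the other way, with 143 CPM in litter B and between 125 and 136 CPM in the other litters (FDR 0.0373, edgeR). The remaining 6 had an FDR between 0.0179 and 0.0386. Without the litter F pair, 4 of the 10 still passed, namely Uqcrq, Ndufb2, Ndufb6 and Cox7a2l, and 0 others did. Litter B held 4 libraries and each other litter 2, so that the other litters rest on 1 WT and 1 KO brain each.

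Sex was not associated with a called change. An FDR under 0.05 was reached by 0 of the 84 genes, compared with 12 of all genes (0.0669%), and 0 had an unadjusted p under 0.05, compared with 5.04% of all genes. The likelihood ratio test and DESeq2 called 0 members too. By direction, 70 of the 84 (83.3%) were fitted higher in females, compared with 51.6% of all genes, with a median log2 difference of 0.02. The count ranged from 52 to 76 over the other settings, the lowest being that without either library of litter C. Members with an unadjusted p under 0.05 numbered 7 without WT replicate 5 and 8 without KO replicate 5, beside 2029 and 2030 of the 17927 genes, 2 without WT replicate 3 and at most 1 in the other settings, each of them higher in females, and 0 passed the FDR. The lowest p values were those of Ndufv3 (log2 difference 0.06, FDR 0.927, edgeR) and Ndufs8 (0.08, FDR 0.927, edgeR), a flavoprotein module subunit and the iron-sulphur subunit named above.

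The X chromosome carries 3 members. Ndufa1, an accessory subunit of complex I (37187588 to 37191163), was at 35.5 to 42.8 CPM (median 37.7) in the 6 female and at 35.4 to 41.2 CPM (median 39.3) in the 8 male libraries. Ndufb11, of the membrane arm of complex I (20615326 to 20617619), was at 61.9 to 68.8 CPM (median 65.6) in female and at 62.3 to 69.7 CPM (median 64.2) in male libraries. Cox7b of complex IV (106015700 to 106022450) was at 117 to 127 CPM (median 123) and at 119 to 135 CPM (median 124). The sexes overlapped in each gene, and the log2 differences of -0.01, 0.03 and 0.00 had an FDR of 0.987, 0.952 and 0.992 (edgeR). Between the genotypes their log2 fold changes were -0.03, -0.03 and -0.02.

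Genes that work with the members were read from lists. Cytochrome c (Cycs) was at 64.6 CPM with a log2 fold change of -0.05, and the carrier protein Ndufab1, which the symbol rule leaves out, at 41.9 CPM with -0.03. Of 45 assembly factors, 0 passed the FDR for genotype and 1, Tmem126b of complex I assembly, had an unadjusted p under 0.05, with a log2 fold change of -0.10 (FDR 0.959, edgeR). Of 12 regulators of mitochondrial biogenesis, 0 passed the FDR and 1 had an unadjusted p under 0.05, Hcfc1, a cofactor of transcription, with a log2 fold change of 0.11 (FDR 0.626, edgeR). Of 13 citrate cycle and 17 glycolysis genes, 0 passed the FDR and 0 had an unadjusted p under 0.05, and their median log2 fold changes were -0.03 and -0.01. By litter, 13 of the 45 assembly factors (28.9%), 4 of the 13 citrate cycle genes (30.8%), 8 of the 17 glycolysis genes (47.1%) and 67 of the 76 cytosolic ribosomal protein genes (88.2%) passed the FDR, beside 29.6% of all genes.

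The lists held markers of some of the tissues named for the rare isoforms, and none of lung or of hypoxia. The 6 measured skeletal muscle markers summed to between 12.6 and 15.97 CPM per library, and the 1 measured brown fat marker, Cidea, was at 2.62 to 5.35 CPM. The 5 testis and sperm markers had no row in the table. The 6 markers of mural cells, which surround small vessels, summed to between 219 and 290.3 CPM in WT and to between 209 and 275 CPM in KO libraries. The 6 choroid plexus markers had 0 genes past the FDR and 5 with a lower level in KO at an unadjusted p under 0.05, and summed to between 844 and 1092 CPM in WT and to between 701 and 945 CPM in KO libraries. The part of these cells in the members' values was not tested.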

How the data were processed

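RNA-SEQ had been made from total RNA of 14 brains after depletion of ribosomal RNA. The authors trimmed the reads with Trimmomatic, aligned them with STAR to GRCm38 and assigned them to genes, with HTSeq-count by the methods and with featureCounts by the submitters' processing notes. The methods also name a ScriptSeq kit, and the labels a stranded TruSeq kit. They deposited whole-number counts for 17927 genes, not normalized, which they had filtered by a rule not given in the sources used here. Every sample column was used. The labels gave the genotype, while the headers of the count columns gave litter and sex.

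The members and gene lists were chosen with earlier results of these data known. Counts were scaled with TMM factors and tested without a filter on low counts in edgeR 4.0.16 (R 4.3.3, quasi-likelihood test, model with litter, sex and genotype, Benjamini-Hochberg FDR under 0.05). All 84 members were tested, the lowest member count in a library being 12. The alternatives were likelihood ratio, DESeq2 1.42.0 and limma-voom 3.58.1 tests, other scaling, a filter, other covariates, a replicate block and each library left out. The tests were checked on simulated data. Log2 CPM used a prior count of 2. Isoform shares were compared by exact permutation, and by sign flips over pairs as an alternative added after the data were seen, in Python 3.11.15 with numpy 2.4.6 and scipy 1.17.1, and figures drawn with matplotlib 3.10.9. TPM used exons of GENCODE M21, found for 17915 genes. The principal transcript (APPRIS) length was also an added alternative. Depth was between 37620954 and 70910163 counts. The p-values of the gene test measure the spread between brains after litter and sex, and those of the shares the spread between brains without litter or sex in the test.

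Named genes are Capn15, members with an FDR under 0.05 for genotype, sex or litter (at most 10 per factor), the 5 with the lowest genotype p, the highest and lowest of each complex, isoform families, and X-linked members. Other names were chosen after their values were seen. Replicate numbers 1 to 7 join a WT and a KO brain of 1 litter, and in numbers 1 to 6 these differ in sex. Numbers 2 and 3 both fall in litter B, so that the pairs within that litter rest on numbering alone. The values of 1 member, which stays in every fit and count, are not reported here.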

Additional observations from a re-analysis of the deposited data

Results flagged for a closer look

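Each group of 7 libraries was checked for a library that stood apart, meaning that its gap to the nearest other library was too large a part of the group's range by Dixon's 95% critical value. Over 108 such groups (named genes, isoform shares and set medians) 6 were found, and chance would give about 5.4. Capn15 gave 2 of them, the library labelled WT replicate 7 at 18.7 CPM, below the next at 24.98 CPM, and the library labelled KO replicate 7 at 20.2 CPM, above the next at 14.5 CPM. Atp5j was highest in WT replicate 7 at 82.2 CPM, with the next WT library at 77.8 CPM. Cox4i1 was lowest in KO replicate 6 at 286 CPM, with the next KO library at 308 CPM. The share of Cox7a2l in its family was highest in WT replicate 2 at 42.0%, with the next at 38.7%, and the share of Atp5g1 was highest in KO replicate 7 at 26.4%, with the next at 24.5%.

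The 5 pseudogene rows that the members' symbols match, which no comparison used, held counts above the limit of 3 in each library. Their means over 14 libraries were 0.272 CPM for Ndufa12-ps, 0.375 CPM for Ndufs5-ps, 0.422 CPM for Atp5l2-ps, 0.498 CPM for Cox6c2 and 1.42 CPM for Atp5pb-ps. These sequences resemble their parent genes, so that the source of the reads is uncertain.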

How the results depend on the processing

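The count of 0 members was the same for genotype in each of the 24 other settings, and for sex in those with sex in the model. Over all genes, the 1 call for genotype became 2 with litter but without sex, 34 with the likelihood ratio test, 17 with DESeq2, 7 without the litter F pair and 0 to 7 with single libraries left out, and the 12 calls for sex became 36 with the likelihood ratio test and 19 with DESeq2. A block for replicate number in place of litter, with sex, gave 0 genes and 0 members for genotype. The deviations of same-numbered libraries, which share a litter, had a mean correlation of 0.120, above 0.1 in 4 of 7 pairs. Single pairs ranged from -0.465 to 0.449, and the mean for WT and KO libraries of different litters was -0.0394. For litter, 10 members became 16 with the likelihood ratio test, 4 without the litter F pair and 4 to 14 with single libraries left out. Capn15 missed the FDR threshold at a log2 fold change of -0.81 and passed it with genotype alone (-0.81), with litter but without sex (-0.82), with the likelihood ratio test (-0.81), with DESeq2 (-0.81) and without the litter F pair (-0.98), and ranged from -0.98 to -0.67 with single libraries left out, passing without either library of litter F. The cause was not tested.

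With single libraries left out, the KO minus WT difference of the shares, in percentage points, lay between -0.204 and 0.360 for Atp5g1, -0.180 and 0.429 for Atp5g2, -0.479 and 0.0252 for Atp5g3, -0.0361 and 0.0237 for Cox4i2, -0.108 and -0.0339 for Cox6a2, -0.0203 and 0.0286 for Cox6b2, -0.00883 and 0.0507 for Cox7a1, -0.230 and 0.946 for Cox7a2l, and -0.0210 and 0.121 for Ndufa4l2, with no exact permutation p under 0.192. With a replicate block, as sign flips over pairs, which was added after the data were seen, the exact p values were between 0.266 and 0.891. The mean shares moved with length. With the longest transcript they were 0.297% for Cox4i2, 1.23% for Cox6b2, 36.8% for Cox7a2l, 11.98% for Atp5g1 and 70.1% for Atp5g3. With the principal transcript they were 0.297% for Cox4i2, 1.23% for Cox6b2, 1.08% for Ndufa4l2, 10.5% for Atp5g1 and 73.3% for Atp5g3. As counts without length they were 0.285% for Cox4i2, 1.17% for Cox6b2, 0.257% for Cox7a1, 49.9% for Cox7a2l, 1.64% for Ndufa4l2, 43.3% for Atp5g1, 10.3% for Atp5g2 and 46.4% for Atp5g3. Median levels of complexes I to V were 149, 197.5, 262.5, 306.7 and 270.4 TPM with the longest transcript, 164, 179, 311, 357 and 400.0 TPM with the principal transcript, and 146.8, 189, 253, 277 and 182 TPM when mitochondrially encoded genes were left out of the total. The YY1 core was in 1.49% of member genes in the first 250 bases. The lengths themselves differ between these settings.

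Depth limits the 6 rare isoforms, whose libraries held from 12 counts upwards. Length, duplicate copies and strand limit levels between genes, and litters other than B rest on 2 brains each.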
